A study of Homo sapiens with 9 samples.

Results

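The genes described here are the translation initiation factors. They were taken from the whole expression table by symbol: every gene whose symbol starts with EIF and a digit from 1 to 6, without the EIF2AK kinases, pseudogenes and a Y-linked gene. This left 56 of 57338 genes, of which 51 are protein-coding and 5 are non-coding transcripts named after a neighbouring factor. All libraries are labelled as RNA of HEK293T, a human embryonic kidney cell line. The cells received 1 of 3 plasmids, which encode EGFP (the empty vector), EGFP with human protamine 1 (hPRM1) or EGFP with human protamine 2 (hPRM2), and live cells with high EGFP were sorted 3 days later, so by the methods all 3 groups were transfected and EGFP-positive. The libraries labelled hPRM1 go against this description in their markers, as given below. Protamines are small basic proteins that package sperm DNA, and the study asked how they alter transcription in somatic cells. Each group had 3 libraries that cover the 3′ ends of polyadenylated RNA. The labels number them 1 to 3 and do not say whether they are separate cultures, so p-values measure only the spread between these libraries.

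Initiation factors bring the small ribosomal subunit, the initiator tRNA and an mRNA together and place the ribosome on the start codon. The eIF4 factors bind the cap of the mRNA and unwind its leader, eIF3 is the large scaffold on the small subunit, eIF2 delivers the initiator tRNA with GTP, eIF2B recharges eIF2 with GTP, and eIF1, eIF1A, eIF5 and eIF5B select the start codon and join the large subunit. In dividing cells the factors are abundant, and the 4E-binding proteins, which mTORC1 phosphorylates, hold the cap-binding protein eIF4E back.

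Some mRNAs of the translation machinery begin with a C and an unbroken run of pyrimidines, the 5′ terminal oligopyrimidine (TOP) motif, through which mTORC1 signalling controls their translation. The start sites in RefSeq (GRCh38.p14) were read for this motif, defined as a C at the first transcribed base followed by at least 4 bases that are each C or T, on the strand of the gene only. A start site was found for 48 of the 56 genes, and 10 of these 48 (20.8%) held the motif, against 5.14% of 27305 genes with a start site. Over single start sites the shares were 15.4% of 65 and 4.07% of 35116. The 10 sequences are shown because they share this sequence pattern, with EIF4A1 beside them because its paralog EIF4A2 has the motif and EIF4A1 does not. Neither the start sites used in these cells nor control by mTORC1 was tested. Each runs from 10 bases before the annotated start to 20 bases from it, and capitals mark the run of C and T that begins at the first transcribed base.
EIF2A: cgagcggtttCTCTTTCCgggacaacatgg
EIF2D: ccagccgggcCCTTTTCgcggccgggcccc
EIF2S3: gatttccttcCTCTTTTggcaacatggcgg
EIF2S3B: gactttcttcCTCTTTTggcaacatggcgg
EIF3D: cgcatgtttcCTCTTTTCCTggtttctcaa
EIF3F: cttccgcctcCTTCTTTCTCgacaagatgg
EIF3K: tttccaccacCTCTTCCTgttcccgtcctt
EIF3M: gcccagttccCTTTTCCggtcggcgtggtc
EIF4A2: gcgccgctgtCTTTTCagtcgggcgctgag
EIF4B: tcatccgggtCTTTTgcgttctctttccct
EIF4A1: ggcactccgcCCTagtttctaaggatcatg
The run was longest, at 10 bases, in the eIF3 subunits EIF3D and EIF3F, and it was 3 bases in EIF4A1. On the plus strand lie EIF2A (chr3:150546777-150546806), EIF4A2 (chr3:186783567-186783596), EIF3F (chr11:7987327-7987356), EIF3M (chr11:32583821-32583850), EIF2S3B (chr12:10505880-10505909), EIF4B (chr12:53006446-53006475), EIF4A1 (chr17:7572815-7572844), EIF3K (chr19:38619178-38619207) and EIF2S3 (chrX:24054946-24054975). On the minus strand lie EIF2D (chr1:206612446-206612475) and EIF3D (chr22:36529147-36529176).

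The deposited values are RPKM, reads scaled by the length of the gene and the total of the library, for which an estimated 1270000 to 10790000 reads on genes per library were available, with the fewest in hPRM2 (1270000 to 2650000). The libraries labelled hPRM1 stood apart. The summed level of 8 haemoglobin and red cell genes was 2060240 to 2266406 RPKM in them, with 7 to 8 genes above 0, against 2.16 to 18.2 RPKM in the other 6 libraries. That of 8 white blood cell genes was 5455 to 6339 RPKM, with 7 above 0 and FCGR3B at 0 in each, against 0 to 2.54 RPKM. That of 8 genes that mark HEK293T was 0 to 0.31 RPKM in the libraries labelled hPRM1, with 0 to 1 above 0, against 158 to 233 RPKM in the empty vector and 81.2 to 140.0 RPKM in hPRM2. PRM1 was at 0 in all 9 libraries, while PRM2 was at 36130 to 71224 RPKM in hPRM2 and at 0 elsewhere. The libraries labelled hPRM1 also carry library numbers of another range than the other 6, so in these 3 the library series cannot be told apart from the condition. In bulk RNA, fewer cells of a type and less RNA per cell cannot be told apart either. The hPRM2 library 1 had 9652 genes above 0, against 14353 and 15633 in the other hPRM2 libraries, and a fold change is also given without it where it then changed its call or moved by over 1.5 times.

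In the empty vector the 51 coding factors summed to 11510, 12179 and 11460 RPKM, and 49 of them were above 0 in every library. EIF4E2, which encodes the cap-binding 4E homologous protein 4EHP, had the highest level per kilobase, with 1423, 1544 and 1240.0 RPKM (mean 1402 ± 153, SD, n = 3). The eIF3 subunits EIF3G (903 ± 27.3) and EIF3D (899 ± 100.1) came next and did not differ beyond their spread. EIF5, the GTPase-activating protein of eIF2 (717 ± 293), EIF1, the guardian of start codon choice (703 ± 118), EIF3E (669.9 ± 105) and EIF5A, the hypusine-bearing factor best known for elongation (608 ± 199), followed with overlapping ranges. The cap-binding protein EIF4E itself was at 15.7 ± 6.33 RPKM, EIF4E3 at 1.86 ± 0.918 RPKM, and the catalytic eIF2B subunit EIF2B5 at 9.2 ± 1.05 RPKM. EIF2S3B, EIF4E1B and EIF1AX-AS1 were at 0 in all 9 libraries. Because reads come from 3′ ends, division by gene length lowers long genes, so this order holds for RPKM only.

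**Figure D1:**
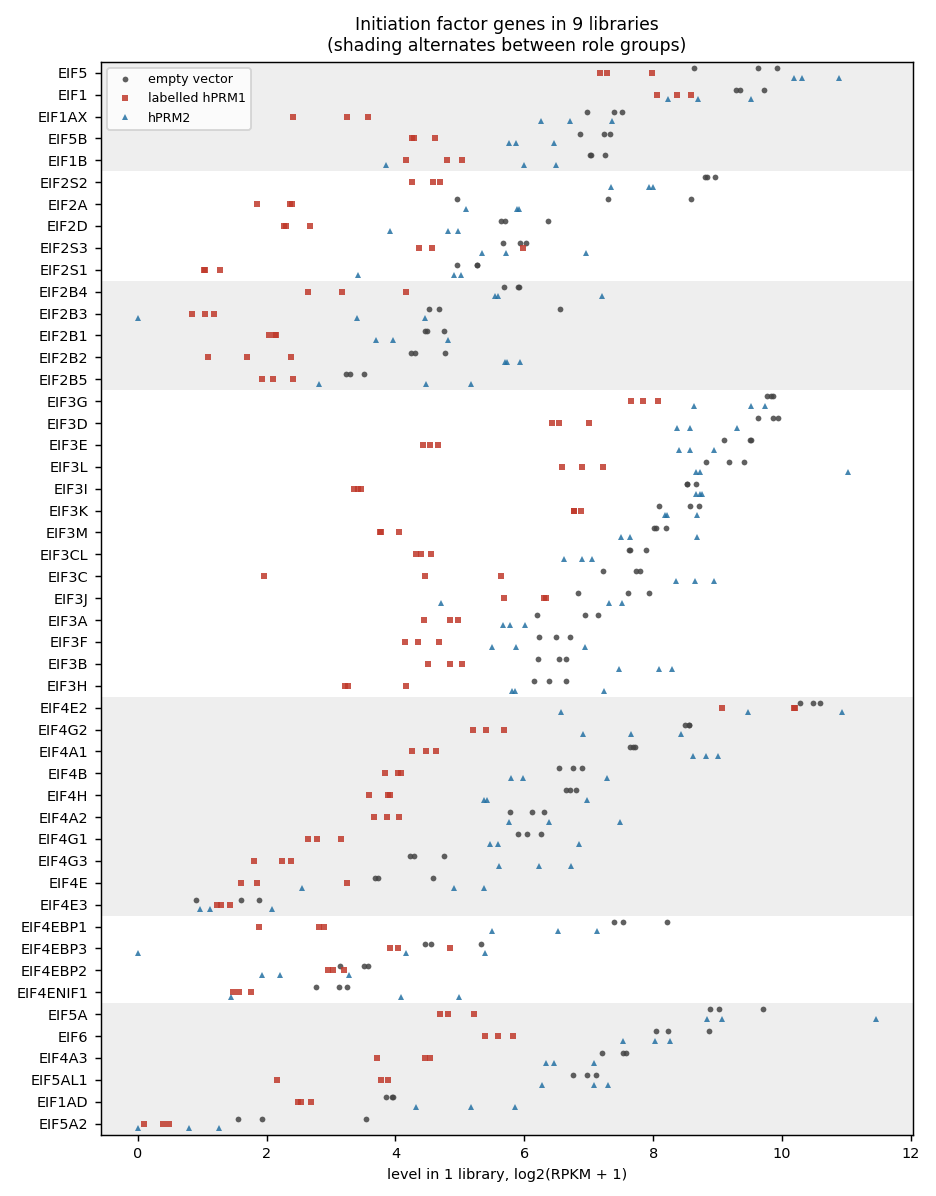
Level of 49 coding initiation factor genes in each of the 9 libraries, as log2(RPKM + 1), with genes grouped by role and ordered by their empty vector mean; each point is 1 library. The libraries labelled hPRM1 sit to the left of both other groups for most genes, with EIF2S3, EIF4E3, EIF4EBP2 and EIF4EBP3 overlapping the empty vector, and the hPRM2 libraries spread most.

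The spread between libraries differed between the groups. The median SD of the coding factors on the log2 scale was 0.234 in the empty vector, 0.248 in the libraries labelled hPRM1 and 0.638 in hPRM2, against 0.37, 0.271 and 0.908 for all genes tested in any comparison. The most variable factors were EIF2A in the empty vector (SD 1.84), EIF3C in the libraries labelled hPRM1 (SD 1.88) and EIF4EBP3 in hPRM2 (SD 2.82). The reads of EIF3C cannot be divided with certainty from those of its near-identical copy EIF3CL. That copy took 31.5 to 87.4% of their sum in the libraries labelled hPRM1. EIF2A encodes an initiator tRNA carrier used on non-canonical start codons, and its empty vector values of 382, 157 and 30.04 RPKM spanned its whole hPRM2 range of 33.2 to 59.7 RPKM.

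The first comparison, hPRM2 against the empty vector, asks how initiation factor transcripts differ in cells with PRM2 RNA. No factor was called, with a call needing an adjusted p of at most 0.05 in limma over all genes and a 2-fold change: 0 of 50 tested factors were lower and 0 higher. The background over all 13126 genes tested was 1.37% lower and 1.36% higher. In simulated data this fit called only 3% of log2 changes of 2 and 29.9% of those of 3, so a missing call says little. At an unadjusted p under 0.05 in limma there were 17 of 50 factors and 3351 of all 13126 genes. The per-gene test of the study's methods called 0 factors on RPKM, and its share over all genes was not computed. The summed level of the family was 13473, 9320 and 11047 RPKM, or 0.963 of the empty vector mean (two-sided exact permutation p = 0.7, with 0.1 the smallest possible). The median log2 fold change of the tested factors was −0.39, against −0.72 for all genes, and it became 0.15 against −0.25 when the libraries were rescaled by the median of ratios, so its direction depended on the scaling. That rescaling called 0 factors lower and 1 higher, where 0.625% and 1.68% of all genes were called, and quantile normalization called 0 in either direction, where 0.602% and 1.79% of all genes were called. Of the factors, 14 were lower in all hPRM2 libraries than in all empty vector libraries and 7 were higher, where 29.9% and 6.01% of all genes did so.

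The 7 factors with higher values in every hPRM2 library came from different steps of initiation. EIF4A1, the main RNA helicase of the cap complex (ENSG00000161960, chr17:7572706-7579005, plus strand), was at 209, 205 and 198 RPKM in the empty vector and at 393, 512 and 449 RPKM in hPRM2. All hPRM2 values were above all empty vector values, with a log2 fold change of 1.13 (SE 0.26, adjusted p = 0.0643 in limma). EIF4A1 was called higher after median-of-ratios rescaling, with a log2 fold change of 1.69 and an adjusted p of 0.0499 in limma, just under the threshold. After quantile normalization it was not called (adjusted p = 0.0884 in limma). Reads on EIF4A1 cannot be separated from its readthrough partner SENP3-EIF4A1, which overlaps it on the same strand.
EIF4G3, a scaffold that joins the cap-binding protein to the helicase, was at 25.8, 18.4 and 17.7 RPKM and then at 47.6, 104 and 74.3 RPKM. Its log2 fold change of 1.77 (SE 0.43) was the highest of the 50 tested factors under all 3 scalings and had an adjusted p of 0.0755 in limma. EIF3B, the eIF3 subunit around which the complex assembles, was at 91.6, 98.9 and 73.5 RPKM and then at 177, 311 and 271 RPKM. It followed with a log2 fold change of 1.48 (SE 0.34, adjusted p = 0.0647 in limma). EIF2B2, the beta subunit of the eIF2 exchange factor, was at 18.8, 17.8 and 26.2 RPKM and then at 60.3, 50.9 and 52.2 RPKM. The other 3 were EIF1AD, an eIF1A-like protein of small-subunit assembly (14.4, 13.4 and 14.6, then 18.9, 34.9 and 57.1 RPKM), EIF5 (788, 967 and 394, then 1162, 1899 and 1268 RPKM) and EIF3C (212, 221 and 149, then 326, 401 and 489.9 RPKM). Without hPRM2 library 1, which had the lowest value of the group in 6 of these 7, limma called 6 of the 50 factors higher, namely EIF4G3 (2.06), EIF3B (1.72), EIF1AD (1.60), EIF2B2 (1.28), EIF4A1 (1.23) and EIF3C (1.21 on the log2 scale), where 5.3% of all 12825 genes tested in that fit were called higher. A fit of all 9 libraries called EIF4G3, EIF3B, EIF2B2 and EIF4A1 higher and EIF3D, EIF2S2 and EIF5B lower, where 3.86% of all genes were called higher and 12.3% lower.

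Among the start codon factors, EIF5B, the GTPase of subunit joining, was at 160.2, 149.6 and 115 RPKM in the empty vector and at 57.6, 53.0 and 87.2 RPKM in hPRM2, without overlap (log2 fold change −1.11, adjusted p = 0.118 in limma). EIF1 was at 623, 648 and 839 RPKM and then at 736, 301 and 414 RPKM, with overlapping groups. Its paralog EIF1B was at 129.6, 128 and 151 RPKM and then at 13.4, 89.1 and 63.0 RPKM, lower in every hPRM2 library, with a log2 fold change of −1.65 (SE 0.68) that was −0.85 without hPRM2 library 1. Among the tRNA carriers, EIF2S2, the beta subunit of eIF2, was at 456, 497 and 446 RPKM and then at 243, 161 and 256 RPKM. This difference of −1.11 (SE 0.29, adjusted p = 0.086 in limma) passed the threshold without hPRM2 library 1, at −1.19. EIF2S1, the alpha subunit whose phosphorylation slows initiation, was at 29.9, 37.5 and 37.3 RPKM and then at 9.70, 31.2 and 28.9 RPKM, with 1 overlapping library.

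The eIF2B subunits did not share a direction. EIF2B2 was higher as given above and EIF2B5 ranged from 6.04 to 35.2 RPKM in hPRM2, while EIF2B3 was at 22.01, 24.4 and 93.3 RPKM in the empty vector and at 0, 9.58 and 21.1 RPKM in hPRM2. The log2 fold change of −2.63 (SE 1.21) for EIF2B3 was the lowest of the family and rested on the 0 in hPRM2 library 1. Without that library it was −1.32, and EIF4EBP1 was then the lowest, at −1.70. EIF2B4, the subunit with the highest empty vector level, was at 58.8, 50.5 and 59.6 RPKM and then at 146, 47.3 and 45.8 RPKM, with only hPRM2 library 1 above the empty vector.

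Of the 14 eIF3 genes, 5 were lower in every hPRM2 library than in every empty vector library (EIF3A, EIF3CL, EIF3D, EIF3E and EIF3G) and 2 were higher (EIF3B and EIF3C). Of all genes tested, 29.9% were lower in this way, close to the share of 5 of 14, and 6.01% were higher. EIF3G was at 873, 910.3 and 926 RPKM and then at 854, 396 and 729 RPKM. EIF3I, which encodes a WD-repeat subunit, was among the steadiest, with 368, 404 and 368 RPKM and then 429.7, 424 and 404 RPKM, a log2 fold change of 0.14 (SE 0.24). EIF3L stood out in hPRM2 library 1, at 2071 RPKM, against 405 and 422 RPKM in the other 2 and 451 to 681 RPKM in the empty vector. EIF3C and EIF3CL are near-identical copies on chromosome 16, so their reads cannot be divided with certainty. EIF3CL took 47.3 to 61.4% of their sum in the empty vector and 16.6 to 26.5% in hPRM2. The sum itself was 386.0 to 418.4 RPKM in the empty vector and 444.1 to 587.2 RPKM in hPRM2, so the opposite directions of the copies were larger than the difference of the sum.

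The cap-binding proteins EIF4E2 and EIF4E varied between the hPRM2 libraries, with SDs of 2.22 and 1.52 on the log2 scale, while EIF4E3 had 0.61. EIF4E2 was at 94.2, 709 and 1959 RPKM, spanning the empty vector range, and EIF4E was at 12.3, 23.0 and 11.8 RPKM and then at 4.85, 40.5 and 29.1 RPKM. EIF4G2, which encodes the scaffold relative DAP5 that lacks the eIF4E-binding site, was at 361, 376 and 375 RPKM and then at 346, 119.8 and 201 RPKM, lower in every hPRM2 library. EIF4H, a cofactor of the helicase, was at 99.3 to 110.2 RPKM and then at 124, 40.6 and 42.0 RPKM. Of the inhibitors, EIF4EBP1 was at 167, 184 and 295 RPKM and then at 138, 44.1 and 90.8 RPKM, without overlap (log2 fold change −1.33, adjusted p = 0.156 in limma). EIF4EBP3 was at 20.9, 22.5 and 39.0 RPKM and then at 0, 40.8 and 16.9 RPKM. It lies within the readthrough gene ANKHD1-EIF4EBP3, with which its reads may be shared. Without hPRM2 library 1, 4 factors were called lower, namely EIF4EBP1 (−1.70), EIF4H (−1.32), EIF4G2 (−1.25) and EIF2S2 (−1.19 on the log2 scale), or 4 of 50, where 12.3% of all genes tested in that fit were called lower.

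Among the factors with another main role, EIF5A was at 518, 469.9 and 835 RPKM in the empty vector and at 2827, 538 and 458 RPKM in hPRM2. The first hPRM2 library alone was above the empty vector, and there EIF5A made up 21.0% of the family sum, against 5.8% and 4.1% in the other hPRM2 libraries. EIF5AL1, a near-identical copy, took 11.4 to 22.6% of the summed reads of the pair in the empty vector, 22.6% in hPRM2 libraries 2 and 3, and 2.6% in hPRM2 library 1. EIF4A3, the helicase of the exon junction complex, was at 147, 184 and 189 RPKM and then at 79.8, 87.3 and 134 RPKM. EIF6, which keeps the large subunit from joining early, was at 264, 299 and 466 RPKM and then at 259, 184 and 305 RPKM. EIF5A2 was at 10.6, 1.93 and 2.79 RPKM and then at 0, 0.735 and 1.40 RPKM, near the limit of these shallow libraries.

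The second comparison sets the libraries labelled hPRM1 against the empty vector, and each value in it comes with the blood and HEK293T marker levels above, whose part in the result was not tested. In these libraries 44 of 50 tested factors were lower and 0 higher, or 88.0% lower, where 62.5% of all 13588 genes tested were lower and 12.9% higher. The groups were apart, with the lower values in the libraries labelled hPRM1, for 45 factors and for 66.4% of all genes, and apart in the other direction for 0 factors and 14.5% of all genes. The family sum was 2261, 2998 and 2793 RPKM, 0.229 of the empty vector mean (two-sided exact permutation p = 0.1, the smallest possible). The median log2 fold change of the factors was −2.62, against −1.72 for all genes. Among genes with at least 10 RPKM in at least 3 libraries these medians lay closer together, at −2.77 and −2.43. After median-of-ratios rescaling, 16 were lower and 5 higher, with a median of −0.62 against −0.12 for all genes, where 28.9% and 28.8% of all genes were called. After quantile normalization, 23 were lower and 4 higher, with a median of −1.01 against −0.38, where 34.4% and 25.1% of all genes were called. The 16 factors lower under all 3 scalings are EIF1AX, EIF2A, EIF2B3, EIF2D, EIF2S1, EIF2S2, EIF3CL, EIF3E, EIF3I, EIF3M, EIF4A1, EIF4A3, EIF4EBP1, EIF4G1, EIF5A and EIF5AL1.

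By role, all 5 start codon factors, 4 of 5 tested tRNA carriers, all 5 eIF2B subunits, all 14 eIF3 genes, 8 of 10 tested cap-complex factors, 2 of 4 inhibitors and all 6 factors with another main role were lower as deposited. Of all genes tested, 62.5% were lower. The lowest median was that of the tRNA carriers, −4.04, and the highest that of the inhibitors, −0.98. After median-of-ratios rescaling the medians were −2.20 for the tRNA carriers, −0.41 for eIF3 and 0.92 for the inhibitors. Still called lower were 4 tRNA carriers, 4 of 14 eIF3 genes, 3 factors with another main role and 2 cap-complex factors. So were 1 start codon factor, 1 eIF2B subunit and 1 inhibitor. Called higher were 2 cap-complex factors, 2 inhibitors and 1 start codon factor. Of all genes tested, 28.9% were then called lower, a share close to that of eIF3, and 28.8% higher. EIF2S1 was at 1.41, 1.06 and 1.04 RPKM against at least 29.9 RPKM in the empty vector, and EIF2S2 was at 18.2, 24.8 and 23.0 RPKM. The third eIF2 subunit, EIF2S3, was at 62.3, 19.6 and 22.7 RPKM against 59.9, 49.9 and 64.1 RPKM, overlapped the empty vector and was not called (log2 fold change −0.90, adjusted p = 0.0971 in limma, and 1.23 after median-of-ratios rescaling). EIF2A fell from 382, 157 and 30.04 RPKM to 4.25, 4.16 and 2.61 RPKM, a log2 fold change of −4.74 (SE 0.86).

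The 2 lowest factors were an inhibitor and an eIF3 subunit. EIF4EBP1, the main 4E-binding protein (ENSG00000187840), was at 2.68, 6.40 and 6.02 RPKM, a log2 fold change of −5.18 (SE 0.36, adjusted p = 2.48e-05 in limma). EIF3I (ENSG00000084623, chr1:32221928-32231604, plus strand) was at 10.03, 9.63 and 9.19 RPKM, a log2 fold change of −5.17 (SE 0.16, adjusted p = 2.46e-06 in limma). EIF3E, a subunit of the eIF3 core, was at 20.6, 22.1 and 24.2 RPKM and changed by −4.84 (SE 0.18). These 3 remained lower under both other scalings, at −3.15, −3.05 and −2.68 after median-of-ratios rescaling. The eIF3 genes did not move to the same extent: against these, EIF3J, a loosely bound subunit, changed by −1.35, EIF3K by −1.65 and EIF3B by −1.67, and these 3 lay above 0 after median-of-ratios rescaling. EIF3G was at 201, 267 and 229 RPKM, a log2 fold change of −1.96 (SE 0.16), and at 0.22 after that rescaling.

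EIF4A1 was at 18.2, 21.2 and 23.9 RPKM in the libraries labelled hPRM1, with no overlap with either other group (log2 fold change −3.22, SE 0.17, adjusted p = 9.58e-06 in limma). EIF5A was at 24.7, 36.2 and 27.1 RPKM, a log2 fold change of −4.30 (SE 0.27). EIF1 (ENSG00000173812, chr17:41688885-41692668, plus strand) was at 382, 265 and 331 RPKM, a log2 fold change of −1.11 (SE 0.20) that was called lower as deposited and called higher, at 1.07, after median-of-ratios rescaling. EIF1 thus lay at the 63.0 percentile of all genes tested, against 18.8 for EIF4A1 and 7.3 for EIF5A. EIF5, at 155, 253 and 143 RPKM, was lower as deposited (−1.91) and at 0.27 after that rescaling. EIF2B4, at 16.8, 5.24 and 7.95 RPKM, changed by −2.52 and by −0.44 on the 2 scales.

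Of the 6 tested factors that were not called, 4 are cap-binding proteins or 4E-binding proteins, and the other 2 were EIF2S3 and the non-coding EIF3J-DT. EIF4E2 was at 537, 1174 and 1166 RPKM against 1240.0 to 1544 RPKM in the empty vector, lower in every library (log2 fold change −0.63, adjusted p = 0.114 in limma). It made up 23.8, 39.2 and 41.8% of the family sum, against 10.8 to 12.7% in the empty vector and 0.699 to 17.7% in hPRM2. EIF4EBP2, a brain-rich 4E-binding protein, was at 7.21, 8.24 and 6.77 RPKM against 11.0, 10.3 and 7.83 RPKM. EIF4EBP3 was at 15.5, 27.6 and 14.0 RPKM and EIF4E3 at 1.34, 1.69 and 1.45 RPKM, both overlapping the empty vector. EIF4E2, EIF4E3, EIF4EBP2 and EIF4EBP3 were called higher after both rescalings, with log2 fold changes of 1.56, 1.16, 1.60 and 1.57 after the median of ratios. The inhibitor EIF4ENIF1, which carries eIF4E into the nucleus, was called lower (−1.44) as deposited and lay at 0.27 after that rescaling.

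**Figure D2:**
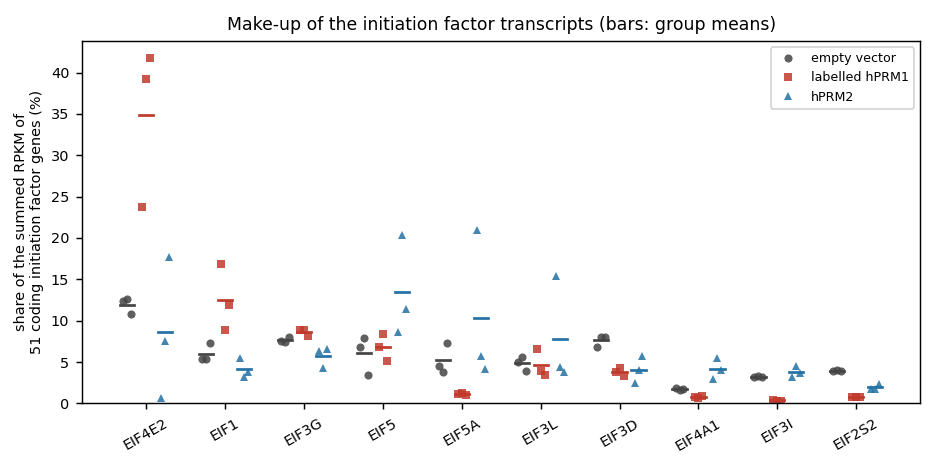
Share of the summed RPKM of the 51 coding factors taken by 10 of them in each library, in percent; points are libraries and bars group means. EIF4E2 takes 23.8 to 41.8% in the libraries labelled hPRM1 and 10.8 to 12.7% in the empty vector, and hPRM2 library 1 stands apart for EIF5A (21.0%) and EIF3L (15.4%).

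The 9 tested factors with the TOP-like start shown above were compared by their medians in the libraries labelled hPRM1. They had a median of −2.74 on the log2 scale, with 8 lower, and the 32 tested coding factors with a start site but no such run had −2.49, with 28 lower. Over all genes tested the median was −1.72, with 62.5% lower. In hPRM2 the medians were −0.38 and −0.26, against −0.72 for all genes. These values are as deposited, and the sets with and without the run were not compared after rescaling. The ranges overlapped in both comparisons, at −4.74 to −0.90 and −5.17 to −0.14 in the libraries labelled hPRM1. EIF2S3, with a run of 7 bases, and EIF2A, with a run of 8, lay at opposite ends of their range.

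The libraries labelled hPRM1 were also set against hPRM2. Of 49 tested factors 37 were lower and 0 higher, where 37.0% of 11756 genes were lower and 16.0% higher, and the median was −2.37 against −0.97 for all genes. With a minimum of 10 RPKM these medians were −2.54 and −1.69. The groups were apart for 37 factors, all lower, and for 43.1% of all genes lower and 19.0% higher. After median-of-ratios rescaling 15 factors were lower and 3 higher, where 18.3% and 31.2% of all genes were called, and after quantile normalization 15 and 3, where 21.9% and 26.5% were called. EIF3I (−5.31), EIF5A (−4.89), EIF3C (−4.63) and EIF4A1 (−4.35) had the lowest values. EIF3C was not called after either rescaling (adjusted p = 0.0533 and 0.0517 in limma). Its near-identical copy EIF3CL changed by −2.43. EIF3CL took 31.5, 47.4 and 87.4% of the summed reads of the pair in the libraries labelled hPRM1, so the value of EIF3C alone is uncertain. EIF4E2 (0.83), EIF4EBP2 (0.60) and EIF4EBP3 (1.08) were on the other side of 0 and were not called. Without hPRM2 library 1, 41 factors were lower and 0 higher, where 42.1% of all genes were lower and 20.5% higher. EIF5A was then at −4.05, and EIF4E2 (−0.38) and EIF4EBP3 (−0.51) lay below 0, so their direction rested on that library. These comparisons share libraries with those above, so their values are not independent of them.

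Paralogs were also compared as a ratio within each library, which depends little on the scaling of that library where both levels are well above the pseudocount of 1. Of the 5 differences between the libraries labelled hPRM1 and empty vector libraries, that of EIF5A2 to EIF5A moved most with the scaling, from 2.28 as deposited to 1.17 after median-of-ratios rescaling. The ratio of EIF4EBP2 to EIF4EBP1, on the log2 scale of RPKM + 1, was −3.81, −4.02 and −5.07 in the empty vector, −4.92, −3.57 and −3.24 in hPRM2 and 1.16, 0.32 and 0.15 in the libraries labelled hPRM1. It was thus below 0 in 6 libraries and above 0 in 3, a difference of 4.84 between libraries labelled hPRM1 and empty vector libraries (two-sided exact permutation p = 0.1, the smallest possible; 0.2 adjusted over 10 ratio tests). The ratio of the helicases EIF4A2 to EIF4A1 was −1.60, −1.92 and −1.33 in the empty vector and −0.21, −0.60 and −0.97 in the libraries labelled hPRM1, without overlap (difference 1.02, exact permutation p = 0.1). In hPRM2 it was −1.14, −2.62 and −3.05 and overlapped the empty vector. EIF4A2 itself was at 68.3, 53.7 and 78.2 RPKM with the empty vector, then at 15.6, 13.7 and 11.7 RPKM under the hPRM1 label and at 178, 82.1 and 53.4 RPKM under hPRM2. It hosts several small nucleolar RNAs in its introns.

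The ratio of EIF4G2 to EIF4G1, the scaffold without and the scaffold with the eIF4E site, was 2.60, 2.51 and 2.30 in the empty vector and 1.59, 1.33 and 2.20 in hPRM2, lower in every hPRM2 library (difference −0.77, exact permutation p = 0.1). In the libraries labelled hPRM1 it was 2.42, 2.53 and 2.75 and overlapped the empty vector. EIF4G1 went from 58.6, 65.1 and 75.4 RPKM to 5.89, 7.89 and 5.26 RPKM there, a log2 fold change of −3.21, and EIF4G2 to 35.9, 50.4 and 41.2 RPKM, a log2 fold change of −3.11. The ratio of EIF1B to EIF1 was −2.26 to −2.47 in the empty vector and −3.34 to −3.89 in the libraries labelled hPRM1 (difference −1.33, exact permutation p = 0.1). In hPRM2 it was −5.68, −1.74 and −2.70, with the first library far below the other 2. The ratio of EIF5A2 to EIF5A was −5.48, −7.33 and −7.78 in the empty vector and −4.59, −4.83 and −4.34 in the libraries labelled hPRM1, where EIF5A2 was under 0.4 RPKM and the pseudocount sets the value. The smallest adjusted p over the 10 tests was 0.2.

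The wider pathway was followed in 40 further genes, of which 39 were tested. In hPRM2, 2 were lower and 0 higher, with a median of −0.65, where 1.37% and 1.36% of all genes were called. Those were PAIP2, an inhibitor of the poly(A)-binding protein (−1.65, SE 0.32, adjusted p = 0.047 in limma), and DOHH, the enzyme that completes the hypusine of eIF5A (−1.98, SE 0.38, adjusted p = 0.0473 in limma). Neither was called after median-of-ratios rescaling or quantile normalization. DOHH was also low, at 2.98, 3.55 and 3.54 RPKM in the empty vector and at 0, 0 and 0.349 RPKM in the shallow hPRM2 libraries. In the libraries labelled hPRM1, 31 were lower and 2 higher, with a median of −2.32, where 62.5% of all genes were lower and 12.9% higher. After median-of-ratios rescaling 11 were lower and 7 higher, with a median of −0.46, where 28.9% and 28.8% of all genes were called. The 2 higher genes were the kinases of eIF4E, MKNK1 (log2 fold change 1.21) and MKNK2 (1.16), while 5 of 7 mTORC1 and cap kinase genes were lower, a share close to that of all genes. The eIF2 kinases and phosphatase subunits gave 4 of 6 lower, also close to that of all genes, with EIF2AK1, the haem-regulated kinase of red cell precursors, at −1.24. The elongation factors gave 7 of 8 lower. These counts moved with median-of-ratios rescaling. The eIF2 kinases and phosphatase subunits then gave 0 lower and 2 higher, with a median of 0.56. The mTORC1 and cap kinase genes gave 2 lower and 2 higher, and the elongation factors 3 lower and 1 higher, with medians of −0.2 and −0.8. The 5 non-coding transcripts were near or at 0 except EIF3J-DT, which was at 10.9, 4.61 and 7.54 RPKM with the empty vector, 6.01, 2.27 and 3.15 RPKM under the hPRM1 label and 3.61, 74.7 and 16.6 RPKM in hPRM2, with overlapping groups in both comparisons.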

How the data were processed

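The 9 libraries, 3 for each label, are labelled as RNA of HEK293T cells. The authors made the deposited RPKM values with nf-core/rnaseq (FastQC, Cutadapt, STAR and Salmon on hg38 per the labels, versions not given in the sources used here), removed mitochondrial genes and divided reads by library total and gene length. Symbols were found for 98.6% of gene identifiers, and gene positions come from GENCODE 29 on GRCh38. Values were compared on log2(RPKM + 1) with limma 3.58.1 in R 4.3.3 (lmFit, eBayes with trend and robust), over genes with at least 1 RPKM in at least 3 of 6 libraries, with Benjamini-Hochberg adjustment over all genes tested and a call at an adjusted p of at most 0.05 and 2-fold. A fold change on this scale understates the change of low genes. Of the 56 factors, 50 passed the filter against the empty vector and 49 in the third comparison. Ratios and sums were compared by two-sided exact permutation. Reads per library were estimated from the steps of low values, and intervals would cover counting error only. The fits were tested on simulated data, with changes placed in genes drawn at random from all those tested, not from the factors. For hPRM2 against the empty vector, 3% of log2 changes of 2, 29.9% of those of 3 and 71.6% of those of 6 were called. For the libraries labelled hPRM1 these shares were 60.6%, 67.2% and 94%. Unchanged genes were called in 0.0232% (hPRM2) and 0.0299%. A missing call in hPRM2 therefore does not show that a factor was unchanged. Every factor could be named. Values by library were given, in the comparisons they bear on, for EIF4A1, EIF1 and EIF5A, the highest factor of each role, the 4 highest and 4 lowest changes of each comparison with the empty vector and the paralogs of EIF1, EIF4A, EIF4E, EIF4EBP, EIF4G and EIF5A. Other factors shown by library (such as EIF2S1, EIF2S3, EIF3C, EIF3L, EIF4H, EIF5B, EIF6 and EIF3J-DT) were chosen after their values were seen. The members, gene lists and tests were chosen with earlier results of these data known. Alternatives were other pseudocounts, filters, scalings, tests and sets of libraries. Start sites come from RefSeq (GRCh38.p14). SciPy 1.17.1 gave the permutation tests and matplotlib 3.10.9 the figures, under Python 3.11.15 (numpy 2.4.6, pandas 2.3.3).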

Additional observations from a re-analysis of the deposited data

How the results depend on the processing

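Counts of called factors moved by over 1.5 times with the scaling, the test and the libraries fitted. In the libraries labelled hPRM1 against the empty vector, 44 lower and 0 higher factors became 16 and 5 with median-of-ratios rescaling and 23 and 4 with quantile normalization. Against hPRM2, 37 lower and 0 higher became 15 and 3 with either rescaling. A per-gene Welch t-test called 1 lower on RPKM, the measure of the study's methods, and 23 on log2 values, which those methods do not name. In hPRM2 against the empty vector, 0 lower and 0 higher became 3 and 4 in a fit of all 9 libraries, 0 and 1 (EIF4A1) after median-of-ratios rescaling and 4 and 6 without hPRM2 replicate 1. The cause of these shifts was not tested. The median of −2.62 for the libraries labelled hPRM1 against the empty vector (−1.72 for all genes) moved with the settings. It was −2.81 and −2.23 with pseudocounts of 0.1 and 5 (−2.27 and −0.92 for all genes). It was −2.46 without a filter (−0.765 for all genes) and −2.77 with a minimum of 10 RPKM (−2.43 for all genes). With the rescalings it was −0.62 and −1.01 (−0.12 and −0.38 for all genes). Against hPRM2 the median of −2.37 (−0.97 for all genes) was −2.12 with a pseudocount of 5 (−0.63 for all genes). It was −2.54 with a minimum of 10 RPKM (−1.69 for all genes), and −0.50 and −0.83 with the rescalings (0.49 and 0.11 for all genes). The median of −0.39 for hPRM2 became 0.15 with the median of ratios. Leaving out each library gave 42 to 46, 0 to 4 and 30 to 41 lower factors and 0 to 0, 0 to 6 and 0 to 0 higher ones in the 3 comparisons, and medians of −2.72 to −2.54, −0.50 to −0.22 and −2.54 to −2.29. For the Welch tests, and for leaving out libraries other than hPRM2 replicate 1, shares of all genes called were not computed. Those counts therefore do not set the factors apart from other genes.

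For single factors in the libraries labelled hPRM1, the sign turned with median-of-ratios rescaling and quantile normalization for EIF1 (1.07 and 0.83), EIF4E2 (1.56 and 1.46), EIF4E3 (1.16 and 1.05), EIF4EBP2 (1.60 and 1.26), EIF4EBP3 (1.57 and 1.16), EIF2S3 (1.23 and 0.80), EIF3B (0.47 and 0.02), EIF3K (0.53 and 0.20), EIF3J (0.82 and 0.42), EIF4ENIF1 (0.27 and 0.06), EIF1AD (0.60 and 0.28), EIF2B5 (0.65 and 0.38) and EIF3J-DT (0.95 and 0.68). It turned with the median of ratios but not with quantile normalization for EIF3A (0.13), EIF3F (0.05), EIF3G (0.22), EIF4E (0.12) and EIF5 (0.27), and without empty vector replicate 3 for EIF4E3 (0.07, with −0.42 at the other end). In hPRM2 the median of ratios turned the sign of 12 of 50 tested factors, EIF3G among them (0.04 against −0.53). That rescaling moved the median of all genes from −0.72 to −0.25. Quantile normalization turned 5 there, EIF3I among them (−0.01). The ratio of EIF4G2 to EIF4G1 in the libraries labelled hPRM1 was −0.34 with a pseudocount of 5, and that of EIF1B to EIF1 in hPRM2 was 0.13 without replicate 1, against −1.84 at the other end. Without hPRM2 replicate 1, EIF5A in hPRM2 was −0.24 (1.07 at the other end), and in the libraries labelled hPRM1 against hPRM2 EIF4E2 was −0.38 (1.80 at the other end) and EIF4EBP3 −0.51 (2.18 at the other end, and −0.01 from mean RPKM). Of 825 checks of single factors, 731 kept direction and call, 34 lost and 23 gained the call, and 37 turned. The numbers did not pair the libraries, as correlations of same-numbered libraries were −0.081 to 0.105. With the number as a replicate block, 44, 0 and 36 factors were lower, 0 higher in each comparison, and the medians were −2.62, −0.39 and −2.37. Shares of all genes called were not computed for that fit either. Depth limits EIF5A2, EIF4E3 and the hPRM2 values most.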
